A study of Mus musculus with 9 samples.

Results

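Lpl, Plin4, Plin2, Fabp4, Pparg, Pdk4, Cebpa, Cd36 and Angptl4 are 9 genes of fat cell formation and of fatty acid handling, several of them known targets of the PPAR nuclear receptors. They were taken by gene symbol from the 25860 genes of the deposited count table, having been chosen by their differences between IRE1KO and WT libraries in an earlier fit of the same counts and by their known roles. Their differences between the genotypes are therefore given as a description and support nothing by themselves. RNA was measured by sequencing of polyadenylated transcripts in cells of the mouse calvaria, that is, of the bones that form the top of the skull. The IRE1KO group has 5 libraries and the WT group 4. All were made from flow-sorted Osx1-Cre cells, in which Cre recombinase is driven by the osterix promoter. Osterix, or Sp7, is a transcription factor that osteoblast precursors need. Each library came from the pooled cells of 3 to 5 pups, 2 to 4 days old, grown in medium with 10% serum to 90% confluence. The labels give no allele beyond IRE1KO and WT, and no litter, sort or culture day. Ern1 encodes IRE1, which senses unfolded proteins in the endoplasmic reticulum and answers by splicing Xbp1 mRNA with its own RNase domain.

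PPARγ and C/EBPα are transcription factors that maintain each other's expression and switch on the genes of fat cells. PPARγ binds DNA with the retinoid X receptor and is activated by fatty acids and their derivatives, and its targets include lipases, fatty acid carriers and coat proteins of lipid droplets. In the skull and bone marrow, mesenchymal precursors can form either osteoblasts or adipocytes. In cultured mouse preadipocytes, the spliced form of XBP1 has been reported to bind the Cebpa promoter. Pdk4, Angptl4 and Plin2 also respond to PPARα and PPARδ, and are expressed in many cells that are not adipocytes.

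Promoter windows from 250 bases before to 50 bases after a transcript start (RefSeq, GRCm38.p6) were found for 6 of the 9 genes, and 8 windows were read because Pparg has 3 starts. The 4 printed here belong to Plin4, Pdk4, Pparg and Plin2. Levels of Plin4 and Pdk4 went up and down together across libraries, Pparg followed them less closely, and Plin2 did not move with them. Capitals mark matches to AGGTCA, the hexamer that nuclear receptors bind, or to TTGCNNAA, a C/EBP pattern, on either strand.
Plin4, chr17:56109733-56110032, minus strand: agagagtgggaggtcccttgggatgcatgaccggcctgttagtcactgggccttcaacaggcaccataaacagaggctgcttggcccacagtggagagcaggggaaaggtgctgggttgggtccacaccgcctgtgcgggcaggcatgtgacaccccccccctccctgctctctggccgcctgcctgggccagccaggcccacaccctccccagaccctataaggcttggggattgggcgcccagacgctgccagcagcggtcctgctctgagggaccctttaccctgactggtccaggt
Pdk4, chr6:5496229-5496528, minus strand: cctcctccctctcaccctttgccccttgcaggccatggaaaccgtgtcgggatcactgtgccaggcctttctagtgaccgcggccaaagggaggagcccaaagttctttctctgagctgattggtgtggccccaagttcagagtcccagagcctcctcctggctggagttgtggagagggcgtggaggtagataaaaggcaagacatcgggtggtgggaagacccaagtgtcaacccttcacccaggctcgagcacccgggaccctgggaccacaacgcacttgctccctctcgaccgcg
Pparg, the most downstream start, chr6:115421816-115422115, plus strand: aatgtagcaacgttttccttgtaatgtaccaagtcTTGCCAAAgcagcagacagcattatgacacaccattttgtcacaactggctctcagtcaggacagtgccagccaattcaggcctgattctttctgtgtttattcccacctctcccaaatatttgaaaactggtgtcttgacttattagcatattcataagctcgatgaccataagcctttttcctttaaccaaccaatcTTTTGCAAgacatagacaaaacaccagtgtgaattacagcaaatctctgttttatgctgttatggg
Plin2, chr4:86670010-86670309, minus strand: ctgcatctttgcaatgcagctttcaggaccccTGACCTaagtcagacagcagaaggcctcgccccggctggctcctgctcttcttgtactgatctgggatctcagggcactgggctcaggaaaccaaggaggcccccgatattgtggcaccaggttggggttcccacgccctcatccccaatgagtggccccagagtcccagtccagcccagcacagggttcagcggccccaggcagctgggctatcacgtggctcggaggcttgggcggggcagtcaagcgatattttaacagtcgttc

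The direct repeat of 2 such hexamers with 1 spacer base, the form of site that PPAR and retinoid X receptors bind together, was searched on both strands and matched none of the 8 windows, against 0.381% of the 32851 promoter windows in the table. The single hexamer AGGTCA, which that repeat can contain, was present in the windows of Cd36 (at -228 from the start), Plin2 (at -218) and both upstream starts of Pparg (at -28 and -9), and in 16.3% of all windows. The C/EBP pattern TTGCNNAA was found in the window of the downstream Pparg start, at -215 and -16, and in 10.8% of all windows. TATAAA lay at -30 of the Cebpa start, on the strand of the gene. At -29 of the middle Pparg start it lay on the opposite strand, reading TTTATA along the gene. On either strand it was found in 13.6% of all windows. A match is a run of letters and not a measured binding site, and sites outside these windows were not searched.

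The cultures had the profile of matrix-producing mesenchymal cells with few mature osteoblast transcripts. Of the osteoblast markers, Runx2, a transcription factor of early osteoblasts, was at 67.9 ± 2.42 CPM in IRE1KO, against 66.9 ± 6.28 CPM in WT (SD, n = 5 and 4), and Sp7 was at 18.6 ± 2.23 and 18.9 ± 4.88 CPM. CPM is a gene's count scaled to the library's total and TMM factor, and totals were 18784636 to 22028075 counts. Bglap, osteocalcin, was at 0.10 ± 0.078 CPM in IRE1KO, against 0.039 ± 0.049 CPM in WT, with both means below the level of 3 counts in a library (0.137 to 0.159 CPM). Other late markers lay lower in IRE1KO without passing the test: Ibsp, bone sialoprotein, had means of 0.546 ± 0.390 CPM in IRE1KO, against 2.29 ± 1.29 CPM in WT (adjusted p = 0.152, edgeR), and Phex, an osteocyte protein, 1.16 ± 0.253 CPM, against 2.84 ± 1.96 CPM (adjusted p = 0.187). Dmp1, also of osteocytes, was too low to test, at 0.280 ± 0.177 CPM in IRE1KO, against 1.26 ± 0.690 CPM in WT. Ern1 lay between 49.7 and 55.8 CPM in IRE1KO and between 41.5 and 54.2 CPM in WT, so that its total count was not lower in IRE1KO. A total per gene does not show whether exons are missing, and it checks neither label. WT libraries differed more among themselves than IRE1KO libraries did, and WT 4 stood apart at 56.7 on the first principal component (45.9% of the variance), against -23.4 to 15.1 for all others. Results that rest on single WT libraries are therefore given with and without them.

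Defining transcripts of mature fat cells were at or near 0. Of 20 listed adipocyte products and enzymes, Lep (leptin), Retn (resistin), Cfd (adipsin), the droplet proteins Cidec and Cidea, Adig, Pck1 and Ucp1 had 0 counts in all 9 libraries. Adipoq, adiponectin, was at 0.010 ± 0.023 CPM in IRE1KO, against 0.229 ± 0.203 CPM in WT. Plin1, the droplet coat protein of adipocytes, was at 0.010 ± 0.023 CPM in IRE1KO, against 0.039 ± 0.049 CPM in WT.

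All 9 genes had enough reads to be tested, and they spanned a wide range of levels. On the scale of CPM per kilobase of the principal transcript, Plin2, a coat protein of lipid droplets in most tissues, had the highest level, at 64.5 ± 5.06 in IRE1KO and 56.1 ± 12.9 in WT (SD, n = 5 and 4). Pdk4, which encodes a kinase that inhibits pyruvate dehydrogenase and so favours the burning of fatty acids over glucose, came next at 13.4 ± 1.70 in IRE1KO and 22.8 ± 2.75 in WT. In IRE1KO the order went on with Lpl (7.61 ± 1.06), Angptl4 (7.25 ± 0.300), Pparg (6.82 ± 0.748), Cd36 (5.29 ± 1.84) and Cebpa (4.29 ± 0.479), and each of these overlapped its neighbour in the range of the libraries. Fabp4 (1.21 ± 0.357) and Plin4 (0.667 ± 0.114) were lowest in IRE1KO and overlapped neither each other nor, for Fabp4, the gene above. In WT the order was Plin2, Pdk4, Lpl (16.2 ± 4.76), Pparg (9.45 ± 1.85), Angptl4 (7.60 ± 1.26), Cebpa (6.14 ± 2.89), Cd36 (5.15 ± 2.61), Fabp4 (3.27 ± 0.986) and Plin4 (1.87 ± 0.591), and there only Plin2 was clear of its neighbour.

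Expression of Lpl, Plin4, Fabp4 and Pdk4 was lower in IRE1KO than in WT, with no overlap between the groups. The other 5 genes overlapped. Of the 9 genes, 4 were lower and none higher at an adjusted p under 0.05 in a fit of all 13712 tested genes (quasi-likelihood test in edgeR, Benjamini-Hochberg adjustment), in which 0.379% of genes were called lower and 0.255% higher, 0.634% in all. IRE1KO lay below WT without overlap for 3.28% of all tested genes and above it for 3.66%, 6.94% in all. Because the genes were chosen with this comparison known, nothing is read from these counts. In whole cultures, fewer cells of a kind and less RNA per cell cannot be told apart.

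**Figure D1:**
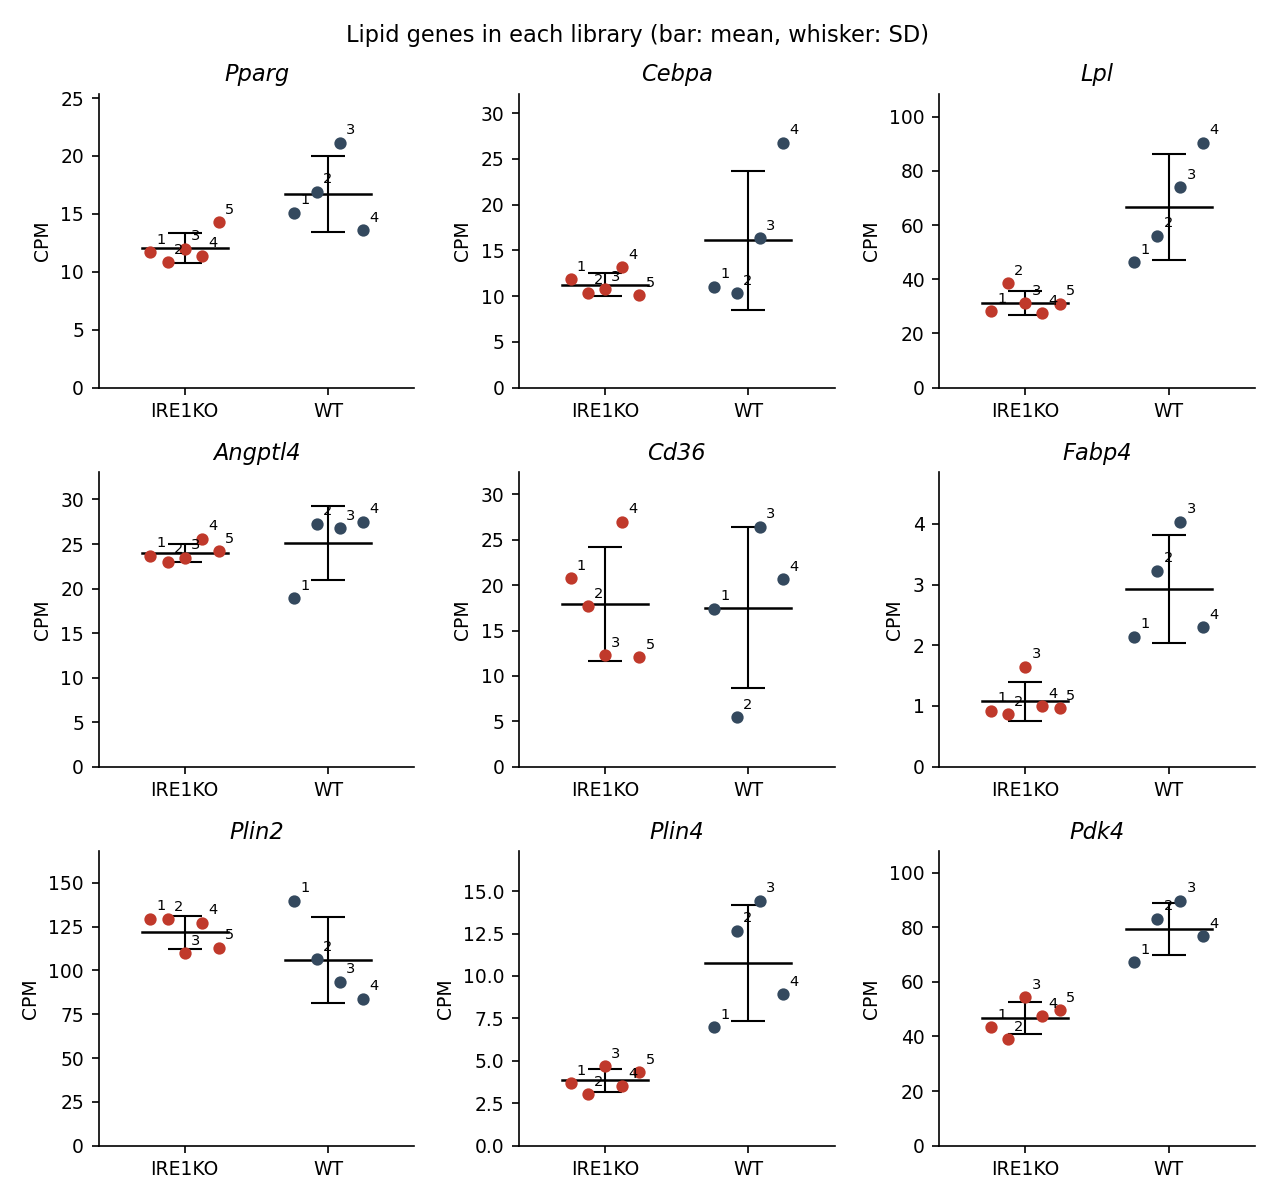
Level of the 9 lipid genes in each library, in CPM, with the group mean (bar) and SD (whisker); the numbers beside the points are replicate numbers, and IRE1KO (n = 5) stands left of WT (n = 4). Lpl, Plin4, Fabp4 and Pdk4 do not overlap between the groups, and the other 5 genes do.

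Of the transcription factors, Pparg (chromosome 6, 115360951 to 115490399, GRCm38) had 11.7, 10.9, 12.0, 11.4 and 14.3 CPM in IRE1KO libraries 1 to 5, against 15.1, 16.9, 21.2 and 13.6 CPM in WT libraries 1 to 4. A single pair crossed, IRE1KO 5 lying above WT 4. Its log2 fold change, IRE1KO over WT, was -0.47 ± 0.13 (SE), with an adjusted p of 0.149 (edgeR). Pparg passed with DESeq2 (adjusted p = 0.0426) and in edgeR without WT 4 (log2 fold change -0.56, adjusted p = 0.0444), and not otherwise.

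Cebpa (chromosome 7, 35119293 to 35121928) had 11.9, 10.4, 10.8, 13.2 and 10.1 CPM in the IRE1KO libraries, against 11.0, 10.4, 16.4 and 26.8 CPM in the WT libraries. WT 1 and 2 lay within the IRE1KO range, WT 3 and 4 above it. The log2 fold change of -0.52 ± 0.26 (SE; adjusted p = 0.355, edgeR) was -0.16 without WT 4.

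Lpl encodes lipoprotein lipase, the secreted enzyme that frees fatty acids from circulating lipoproteins (chromosome 8, 68880491 to 68907448). It had 28.2, 38.6, 31.2, 27.6 and 31.0 CPM in the IRE1KO libraries, against 46.2, 56.1, 74.0 and 90.5 CPM in the WT libraries. Means were 31.3 ± 4.38 CPM in IRE1KO, against 66.7 ± 19.6 CPM in WT (SD, n = 5 and 4). IRE1KO 2 was the highest of its group and still below WT 1, the lowest WT library. On the log2 scale the fold change was -1.09 ± 0.19 (SE), a level 0.469 times that of WT, with an adjusted p of 0.0475 (edgeR).

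Angptl4, a secreted inhibitor of lipoprotein lipase (chromosome 17, 33773750 to 33781830), had a similar level in both groups. Its level was 23.7, 23.0, 23.5, 25.6 and 24.2 CPM in the IRE1KO libraries, against 18.9, 27.3, 26.8 and 27.5 CPM in the WT libraries. A log2 fold change of -0.066 ± 0.11 was fitted (SE; adjusted p = 0.789, edgeR). WT 1 lay below all other libraries, and without it the log2 fold change was -0.18 (adjusted p = 0.0489, edgeR).

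Cd36, a membrane receptor for fatty acids and lipoproteins (chromosome 5, 17781690 to 17888801), varied more within the groups than between them. It had 20.8, 17.7, 12.3, 27.0 and 12.1 CPM in the IRE1KO libraries, against 17.4, 5.44, 26.5 and 20.7 CPM in the WT libraries. WT 2 was the lowest, and the highest WT library held 4.87 times its level. The log2 fold change of 0.039 ± 0.41 (SE; adjusted p = 0.975, edgeR) changed sign when any of 3 libraries was left out, and was -0.019 without IRE1KO 1, -0.16 without IRE1KO 4 and -0.26 without WT 2.

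Fabp4 encodes a cytoplasmic fatty acid carrier of adipocytes, macrophages and endothelium (chromosome 3, 10204088 to 10208576). It was scarce, with 19, 17, 31, 22 and 20 reads in the IRE1KO libraries, against 42, 63, 80 and 44 reads in the WT libraries. Its level was 0.922, 0.870, 1.65, 1.00 and 0.959 CPM in IRE1KO libraries 1 to 5, and 2.14, 3.23, 4.04 and 2.30 CPM in WT libraries 1 to 4. IRE1KO 3 was the highest of its group and below all WT libraries. The log2 fold change was -1.44 ± 0.26 (SE), or 0.369 times the WT level (adjusted p = 0.0494, edgeR).

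Plin4, a perilipin that coats small, newly formed droplets in fat and muscle cells (chromosome 17, 56100591 to 56109803), had 3.69, 3.02, 4.67, 3.51 and 4.31 CPM in the IRE1KO libraries. The WT libraries had 6.99, 12.7, 14.4 and 8.93 CPM. The lowest WT library, WT 1, was above the highest IRE1KO library, IRE1KO 3. The log2 fold change was -1.49 ± 0.22 (SE), or 0.357 times the WT level (adjusted p = 0.0416, edgeR), close to that of Fabp4. Of the 9 genes these fell most, and their order turned without IRE1KO 3 (Plin4 -1.56 and Fabp4 -1.64).

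Plin2, of the same family (chromosome 4, 86648386 to 86670060), did not share that difference. It had 129.6, 129.2, 109.7, 127.2 and 113.1 CPM in the IRE1KO libraries, against 139.9, 106.5, 93.7 and 83.9 CPM in the WT libraries. WT 1 was the highest of all libraries, and the other WT libraries lay below all IRE1KO libraries. Its log2 fold change was 0.20 ± 0.14 (SE; adjusted p = 0.494, edgeR), and without WT 1 it was 0.36 (adjusted p = 0.0429, edgeR).

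Pdk4 (chromosome 6, 5483351 to 5496309) had 43.4, 38.9, 54.4, 47.5 and 49.6 CPM in the IRE1KO libraries, against 67.3, 83.2, 89.8 and 76.8 CPM in the WT libraries. The spread was alike in both groups, with a coefficient of variation of 12.7% in IRE1KO and 12.1% in WT. In the fit its log2 fold change was -0.76 ± 0.11 (SE), or 0.590 times the WT level (adjusted p = 0.0376, edgeR).

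**Figure D2:**
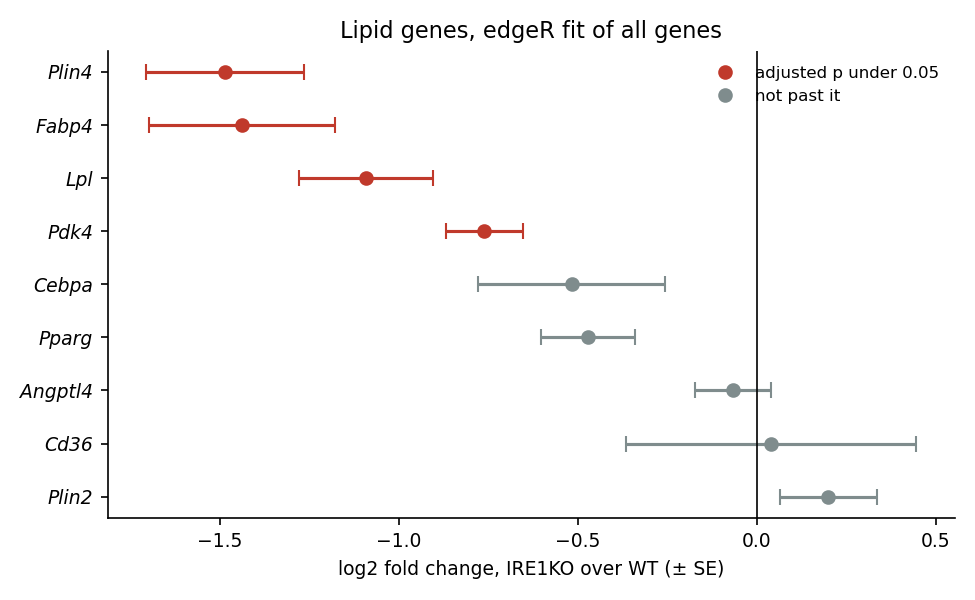
Log2 fold change of each lipid gene, IRE1KO over WT, with its SE from the edgeR fit of all genes; red points have an adjusted p under 0.05. Plin4, Fabp4, Lpl and Pdk4 lie between -1.49 and -0.76, and the other 5 genes between -0.52 and 0.20.

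Lpl, Plin4, Fabp4 and Pdk4 all had adjusted p-values close to the threshold, from 0.0376 to 0.0494, and the calls depended on the set of libraries. Each of the 4 passed in 2 of the 9 edgeR fits that left out 1 library, those without WT 1 and without WT 4. When an IRE1KO library (any of the 5), WT 2 or WT 3 was left out, none of the 4 passed: adjusted p-values were 0.105 to 0.146 for Lpl, 0.0674 to 0.132 for Plin4, 0.0673 to 0.153 for Fabp4 and 0.0579 to 0.125 for Pdk4. The fold changes moved less. Over the 9 fits the log2 fold change was -1.23 to -0.91 for Lpl, -1.65 to -1.31 for Plin4, -1.64 to -1.24 for Fabp4 and -0.83 to -0.70 for Pdk4. With limma voom, Pdk4 passed (adjusted p = 0.0416) and Lpl (0.0595), Plin4 (0.0573) and Fabp4 (0.0612) did not.

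The genes did not vary as a block across libraries of the same genotype. To look at this apart from the difference between the genotypes, each library's log2 CPM (with 0.1 CPM added) was expressed as its deviation from the group mean, and the 36 pairs of genes were compared over the 9 libraries. These correlations are descriptions over few libraries that share the same group means, with no test. Plin4, Pdk4 and Fabp4 went up and down together: Pearson's r was 0.90 for Plin4 with Pdk4 (Spearman's rho 0.90), 0.86 for Plin4 with Fabp4 (rho 0.92) and 0.86 for Fabp4 with Pdk4 (rho 0.87). Without the 2 libraries farthest from the median of the first gene, r was 0.86, 0.79 and 0.73 for the same pairs. Where a gene is compared below with the TMM factor, a marker sum or the first principal component, the 2 libraries farthest from the median of that measure were left out instead. Pparg joined them most closely through Plin4 (r = 0.77, rho 0.87, and 0.72 without the 2 farthest libraries). It was less close to Pdk4 (r = 0.63, rho 0.77, and 0.50 without the 2 farthest libraries). With Fabp4 its r was 0.60 (rho 0.75, and 0.52 without the 2 farthest libraries).

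Of the WT libraries, Plin4, Pdk4 and Fabp4 were all highest in WT 3 and lowest in WT 1. In IRE1KO they were highest in IRE1KO 3 and lowest in IRE1KO 2. Pparg was also highest in WT 3 and lowest in IRE1KO 2, but it was lowest of WT in WT 4 and highest of IRE1KO in IRE1KO 5. Deviations of Plin4 ran from -0.56 in WT 1 to 0.48 in WT 3, and those of Pdk4 from -0.26 in IRE1KO 2 to 0.23 in IRE1KO 3. The TMM factor, which scales a library for its composition and ran from 0.987 to 1.027, moved with them too, with r = 0.90 for Plin4, 0.90 for Fabp4 and 0.80 for Pdk4 (rho 0.92, 0.97 and 0.78; r without the 2 farthest libraries 0.73, 0.88 and 0.67). Its part in the pattern was not tested.

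Lpl, the other gene with a lower level in IRE1KO, was not part of this set: r was 0.16 with Plin4, 0.11 with Pdk4 and 0.08 with Fabp4 (rho 0.10, 0.08 and 0.02; without the 2 farthest libraries -0.12, -0.25 and 0.06). Its deviations ran with those of Cebpa (r = 0.70, rho 0.57) and against those of Plin2 (r = -0.79, rho -0.65). Both relations rested on the 2 libraries farthest out, without which r was 0.16 and -0.26. Plin2 ran against Pdk4 (r = -0.64, rho -0.68, and -0.84 without the 2 farthest libraries).

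**Figure D3:**
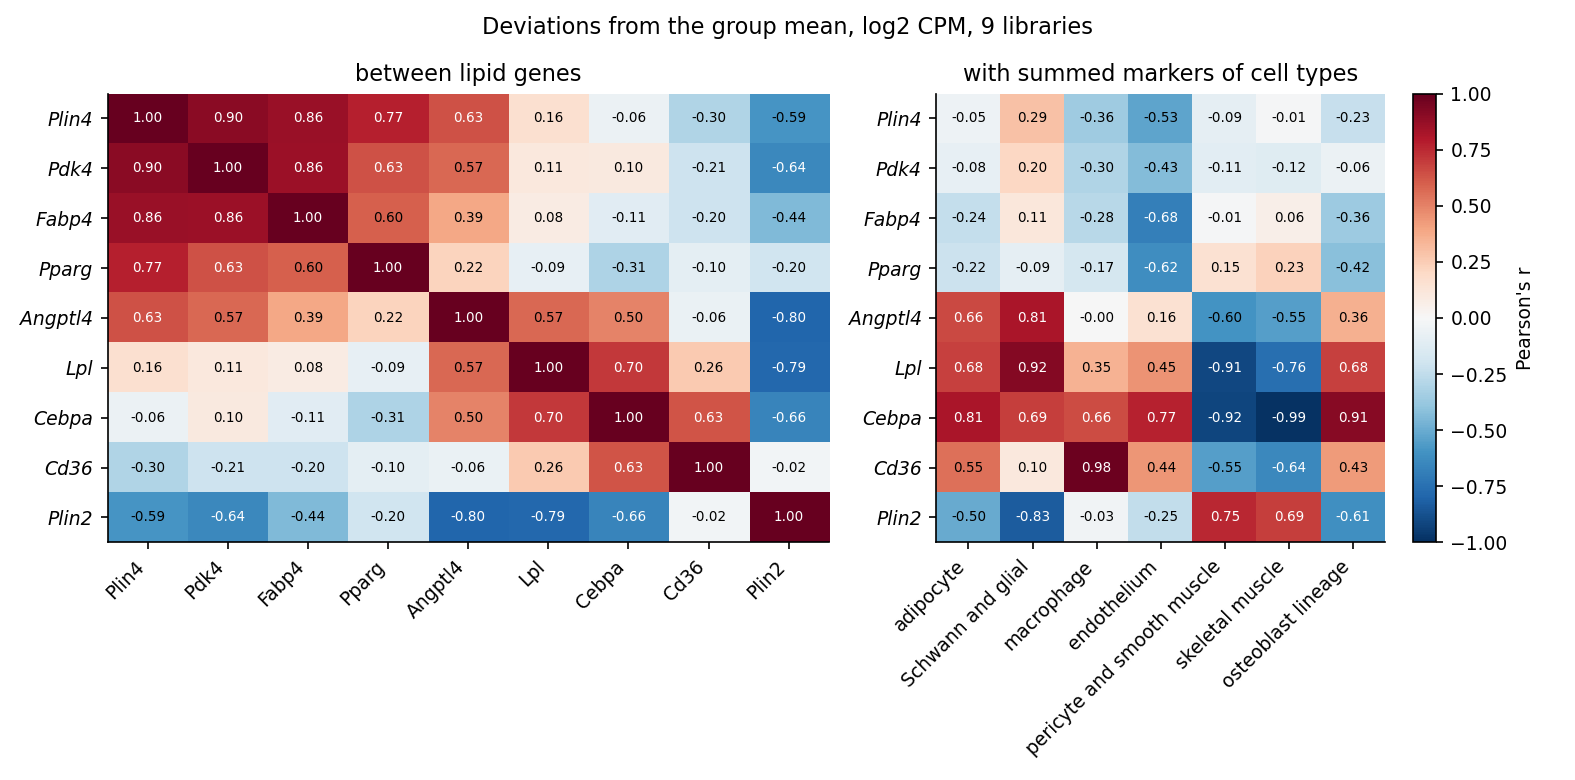
Pearson's r between deviations from the group mean (log2 CPM, 9 libraries), on the left between the lipid genes and on the right with the summed markers of 7 cell types; red is positive and blue negative. Plin4, Pdk4 and Fabp4 have r of 0.86 to 0.90 with each other, and Pparg has 0.60 to 0.77 with them. Cd36 runs with the macrophage markers at 0.98, and Lpl with the Schwann and glial markers at 0.92.

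Several of the 9 genes also moved with markers of other cell types, which a sort for Osx1-Cre cells would be meant to leave out. Cd36, which macrophages express strongly, followed the sum of 12 macrophage markers: r was 0.98 (rho 0.93, and 0.96 without the 2 farthest libraries). All 12 macrophage markers were detected and tested and none was called, and their sum was 151.6 to 331.7 CPM in IRE1KO, against 90.3 to 308.4 CPM in WT. IRE1KO 4 and WT 3 were highest in both Cd36 and the macrophage sum within their groups, and WT 2 was lowest in both. Cd36 also had r = 0.60 with the first principal component, -0.55 with the pericyte and smooth muscle sum and 0.55 with the adipocyte sum. Without the 2 farthest libraries these were 0.97, -0.90 and 0.78. The part of macrophages in the level of Cd36 was not tested.

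Lpl followed the sum of 10 Schwann and glial markers, with r = 0.92 (rho 0.73, and 0.84 without the 2 farthest libraries). That sum was 13.6, 17.9, 13.3, 13.3 and 13.8 CPM in the IRE1KO libraries, against 20.5, 41.1, 46.3 and 68.2 CPM in the WT libraries, with no overlap. Of the 6 of these markers that were tested, all had a fold change below 0 (median log2 fold change -2.12) and none passed. S100b, a calcium-binding protein of glia and cartilage, was at 8.99 ± 1.11 CPM in IRE1KO, against 17.1 ± 4.53 CPM in WT (adjusted p = 0.0605, edgeR), and Sox10, the transcription factor that defines the neural crest and glial lineage, at 0.470 ± 0.374 and 5.37 ± 3.67 CPM (adjusted p = 0.0774, edgeR). None of the 10 markers was at 0 in all libraries. Angptl4 also ran with the glial sum (r = 0.81, rho 0.58) and Plin2 against it (r = -0.83, rho -0.52). Without the 2 farthest libraries these r were -0.087 and 0.093. Lpl also followed the first principal component of all genes (r = 0.80, rho 0.67, and 0.40 without the 2 farthest libraries). The part of Schwann and glial cells in the level of Lpl was not tested. Lpl ran against the sum of 8 pericyte and smooth muscle markers (r = -0.91, rho -0.83, and -0.72 without the 2 farthest libraries), which was 366.1 to 434.6 CPM in IRE1KO, against 327.5 to 665.7 CPM in WT.

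Cebpa ran against the sum of 8 skeletal muscle markers (r = -0.99, rho -0.97, and -0.98 without the 2 farthest libraries). Nearly all of that sum was Acta1, skeletal alpha-actin, at 34.7 ± 4.23 CPM in IRE1KO, against 41.8 ± 19.4 CPM in WT, while Myf5 was at 0 in every library and Ckm, muscle creatine kinase, at no more than 0.256 CPM in any. The sum was 31.0 to 41.0 CPM in IRE1KO, against 22.1 to 60.2 CPM in WT. Cebpa also followed the first principal component of all genes (r = 0.98, rho 0.90, and 0.94 without the 2 farthest libraries), on which WT 4 stood apart. With the sum of 10 adipocyte markers, described below, its r was 0.81 (rho 0.83, and 0.93 without the 2 farthest libraries). With the osteoblast sum it was 0.91 (rho 0.63, and 0.51 without the 2 farthest). With the pericyte and smooth muscle sum it was -0.92 (rho -0.85, and -0.77 without the 2 farthest). The sum of 8 osteoblast markers was 22018 to 24936 CPM in IRE1KO, against 15565 to 31208 CPM in WT, and nearly all of it was Col1a1, a chain of type I collagen (21907 to 24824 CPM in IRE1KO, against 15454 to 31079 CPM in WT), so that it says little of the late markers given above.

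**Figure D4:**
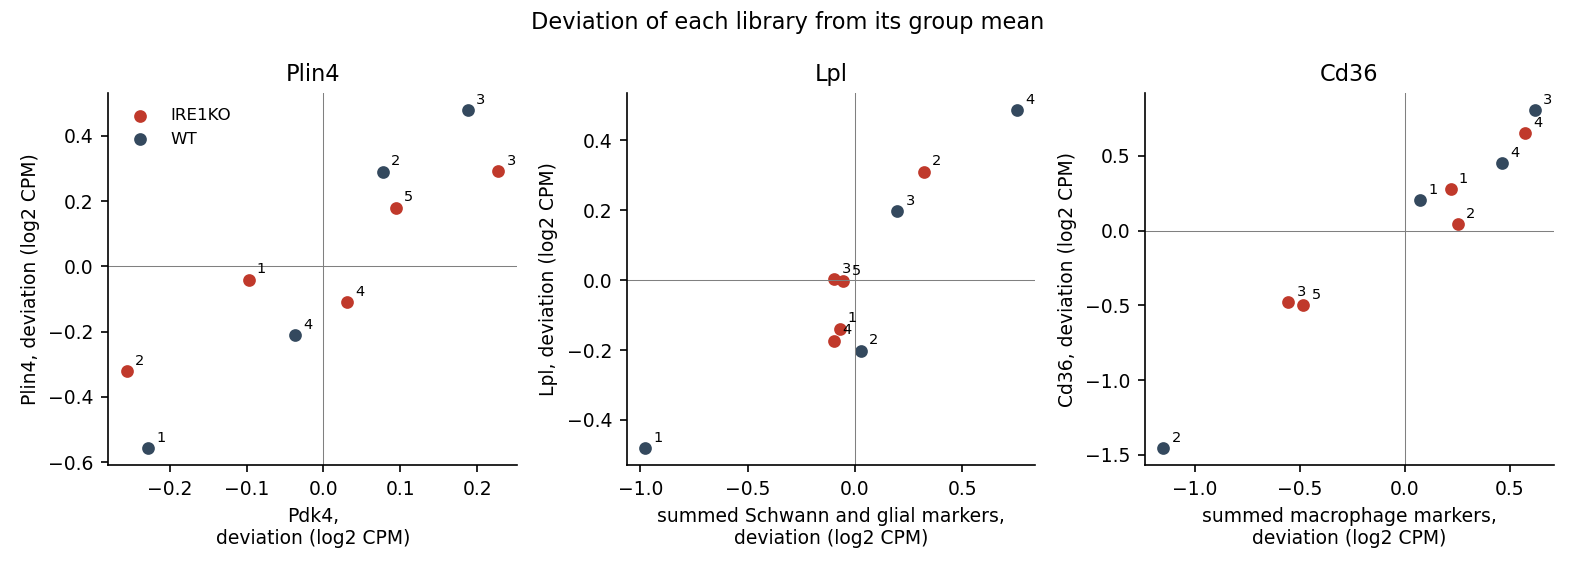
Deviation of each library from its group mean (log2 CPM) for Plin4 against Pdk4, Lpl against summed Schwann and glial markers, and Cd36 against summed macrophage markers; red points are IRE1KO, dark points WT, with replicate numbers beside them. The correlations over the 9 libraries are 0.90, 0.92 and 0.98, and WT 1 and WT 4 lie at the ends for Lpl and WT 2 at the low end for Cd36.

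The deviations of Plin4, Pdk4 and Fabp4 were less tied to these marker sums, the farthest from 0 being r = -0.68 for Fabp4 with the endothelial sum (rho -0.62, and -0.78 without the 2 farthest libraries). The sum of 11 endothelial markers was 16.1 to 20.9 CPM in IRE1KO, against 22.4 to 35.6 CPM in WT, without overlap. Tie1, Cldn5 and Gpihbp1 were at 0 throughout, and the 7 tested endothelial markers all had a fold change below 0 (median log2 fold change -0.40). Of these 7, 1 was called lower, Pecam1 (0.174 ± 0.090 CPM in IRE1KO, against 0.719 ± 0.167 CPM in WT, adjusted p = 0.0497, edgeR). Among all tested genes, 0.379% were called lower. Pecam1 had at most 18 reads in a library, and its lowest IRE1KO library, at 0.053 CPM, lay below the level of 3 counts. Its call was not followed through the fits that left out 1 library. The sum of 10 adipocyte markers was 5.47 to 8.52 CPM in IRE1KO, against 6.18 to 11.3 CPM in WT, nearly all of it Lipe and Slc2a4, and 6 of the 10 were at 0 in every library. What these cells contributed to the lower Fabp4, Plin4 and Pdk4 was not tested.

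The genes whose deviations were most like the mean deviation of the 9 genes, among 10361 others with at least 5 CPM, were Gsta4 (r = 0.96), Tert (0.94), Golga1 (0.93), Cenpk (0.92), Dzip1 (0.92), Ccnb1 (0.92), Nmnat2 (0.91) and Tbccd1 (0.91), over 9 libraries. These 8 are the top of a search over 10361 genes in few libraries, in which 139 genes had an r of at least 0.8. The mean is taken over 9 genes that did not vary as a block, so a high r does not show likeness to each of them. None of these 8 was called between the genotypes. Dzip1 was nearest, at 62.7 CPM in IRE1KO, against 80.0 CPM in WT (log2 fold change -0.35 ± 0.073 SE, adjusted p = 0.0714, edgeR).

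The wider lipid programme was described through other genes of the same pathways. Across 10 lists with 212 genes, the 9 left out, 171 genes were tested, none rose and Klf7 and Col15a1 fell at an adjusted p under 0.05 (edgeR). That is 1.17% of the listed genes, against 0.634% of all genes tested. Their median log2 fold change was -0.043 and 106 of the 171 were below 0, against a median of -0.0050 and 51.6% below 0 among all tested genes. IRE1KO lay below WT without overlap for 12 of the 171 and above it for 3, against 3.28% and 3.66% of all tested genes. These calls depended on the libraries and the tool: without WT 1, 6 listed genes were higher and 16 lower, and without WT 4, 2 and 5. When any other library was left out, 0 listed genes passed in either direction, and DESeq2 called 1 higher and 12 lower.

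**Figure D5:**
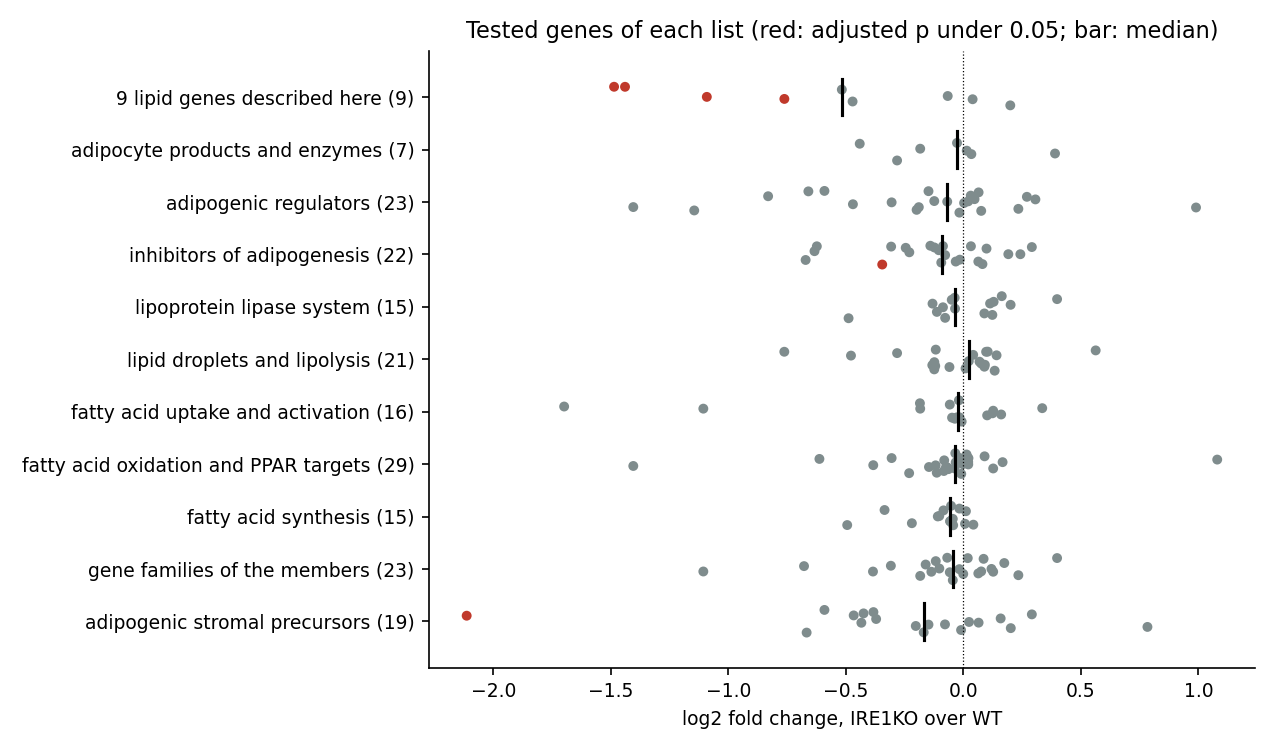
Log2 fold change, IRE1KO over WT, of each tested gene in the 9 lipid genes and in the 10 lists, with the number tested in parentheses; red points have an adjusted p under 0.05 and the bar is the median. Medians of the 10 lists lie between -0.17 and 0.023, and the red points outside the 9 genes are Klf7 and Col15a1.

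Among the regulators that promote fat cell formation, none of 23 tested passed, with 13 below 0 and a median log2 fold change of -0.068. Egr2, an early inducer of adipogenesis that is also a transcription factor of myelinating Schwann cells, was at 6.20 ± 0.838 CPM in IRE1KO, against 13.7 ± 5.43 CPM in WT (adjusted p = 0.0774, edgeR). Prdm16, a determinant of brown fat, was at 16.2 ± 1.44 and 22.4 ± 3.09 CPM (adjusted p = 0.0774). Cebpb, which acts upstream of Cebpa and Pparg, lay the other way, at 50.9 ± 2.57 CPM in IRE1KO, against 43.3 ± 4.20 CPM in WT (adjusted p = 0.160).

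Of 22 tested genes listed here as inhibitors of adipogenesis, 1 fell, 15 were below 0 and the median was -0.090. Klf7, a Krüppel-like factor reported to restrain adipocyte differentiation, was at 47.4 ± 2.89 CPM in IRE1KO, against 60.2 ± 2.27 CPM in WT (log2 fold change -0.35 ± 0.052 SE, adjusted p = 0.0421, edgeR). It too passed only without WT 1 (0.0145) or WT 4 (0.0144) among the fits that left out 1 library, the others giving 0.0650 to 0.141. Gata2, which represses Pparg in preadipocytes, was at 17.4 ± 3.22 CPM in IRE1KO, against 27.0 ± 3.02 CPM in WT (adjusted p = 0.0801). Id2, whose listing as an inhibitor is open to question, was at 22.2 ± 1.18 and 34.1 ± 8.95 CPM (adjusted p = 0.105, edgeR). Klf2 was at 28.1 ± 1.76 and 33.0 ± 2.25 CPM (adjusted p = 0.139, edgeR).

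In the lipoprotein lipase system, none of 15 tested genes passed, with 8 below 0 and a median of -0.035. Gpihbp1, the endothelial anchor of the lipase, was at 0 in all libraries. Sort1, a sorting receptor that binds the lipase, was at 27.0 ± 1.83 CPM in IRE1KO, against 37.8 ± 9.62 CPM in WT (adjusted p = 0.160, edgeR). Lmf2, a relative of the lipase maturation factor, was at 107.6 ± 3.89 and 99.5 ± 4.39 CPM (0.233).

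Droplet and lipolysis genes had none of 21 tested called, 9 below 0 and a median of 0.023. Dgat1, which makes triglyceride, was at 29.5 ± 0.590 CPM in IRE1KO, against 26.7 ± 0.879 CPM in WT (adjusted p = 0.144, edgeR). Plin3, a perilipin found in most tissues, was at 62.1 ± 3.07 and 67.3 ± 3.37 CPM (0.278), and G0s2, an inhibitor of the lipase Pnpla2, at 1.24 ± 0.341 and 2.11 ± 1.19 CPM (0.340). Plin5 was at 0 throughout. Of the perilipins detected beyond 3 counts in a library, the lower level in IRE1KO was thus called for Plin4 and for neither Plin2 nor Plin3.

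Among uptake and activation genes, none of 16 tested passed, with 11 below 0 and a median of -0.023. Fabp7, the brain-type fatty acid carrier, which also stood in the glial list, was at 0.811 ± 0.154 CPM in IRE1KO, against 1.76 ± 0.534 CPM in WT (adjusted p = 0.0832, edgeR). Acsl4, an acyl-CoA synthetase, was at 129.8 ± 7.95 and 116.1 ± 5.02 CPM (0.197), and the transporter Slc27a6 at 2.77 ± 0.714 and 9.05 ± 9.63 CPM (0.224).

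For fatty acid oxidation and PPAR targets, none of 29 tested genes passed, with 20 below 0 and a median of -0.034. Acadm, the medium-chain acyl-CoA dehydrogenase, was at 38.0 ± 2.04 CPM in IRE1KO, against 47.0 ± 4.51 CPM in WT (adjusted p = 0.0804, edgeR). Acadl, the long-chain enzyme, was at 66.1 ± 2.13 and 71.5 ± 3.23 CPM (0.232), and Creb3l3, best known as a liver transcription factor, at 2.07 ± 0.721 and 0.979 ± 0.533 CPM (0.205). Fatty acid synthesis had none of 15 called, 12 below 0 and a median of -0.055. Elovl6 was at 75.5 ± 3.87 CPM in IRE1KO, against 87.9 ± 15.2 CPM in WT (0.323), and the acetyl-CoA carboxylases Acacb and Acaca had adjusted p-values of 0.341 and 0.351.

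Of 7 tested adipocyte products and enzymes none passed, with 4 below 0 and a median of -0.027. Lipe, hormone-sensitive lipase, was at 5.28 ± 0.714 CPM in IRE1KO, against 6.43 ± 1.83 CPM in WT (adjusted p = 0.499, edgeR), Gpd1 at 0.400 ± 0.176 and 0.540 ± 0.235 CPM (0.629), and Fabp5 at 24.5 ± 3.44 and 27.8 ± 8.16 CPM (0.653). Among 19 tested genes of adipogenic stromal precursors, 1 fell, 13 were below 0 and the median was -0.17. Col15a1, a collagen of basement membranes, was at 7.87 ± 1.18 CPM in IRE1KO, against 34.0 ± 17.2 CPM in WT (log2 fold change -2.11 ± 0.36 SE, adjusted p = 0.0475, edgeR). It passed without WT 1 (0.00124) and WT 4 (0.0392), and had adjusted p-values of 0.119 to 0.146 when one of the other libraries was left out. Ghr, the growth hormone receptor, was at 57.2 ± 4.11 CPM in IRE1KO, against 77.3 ± 9.92 CPM in WT (0.0685), Pdgfrb at 512.7 ± 19.6 and 445.7 ± 54.3 CPM (0.234), and Kitl at 65.2 ± 8.5 and 84.9 ± 20.4 CPM (0.278).

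The closest relatives of the 9 genes were expressed without a call, none of 23 tested passing, with 14 below 0 and a median log2 fold change of -0.045. Ppard, the PPAR found in most tissues, was at 66.3 ± 3.76 CPM in IRE1KO, against 62.5 ± 6.74 CPM in WT, and Ppara at 2.00 ± 0.345 and 1.77 ± 0.350 CPM. Rxra, the partner of the PPARs, was at 114.8 ± 2.47 CPM in IRE1KO, against 120.4 ± 13.8 CPM in WT. The other pyruvate dehydrogenase kinases had log2 fold changes of -0.14 (Pdk1), -0.16 (Pdk2) and 0.076 (Pdk3), against -0.76 for Pdk4, and adjusted p-values of 0.715, 0.400 and 0.564 (edgeR). Fabp3, the heart-type carrier, was at 2.11 ± 0.439 CPM in IRE1KO, against 1.93 ± 0.143 CPM in WT, and Angptl2 at 309.8 ± 28.0 and 319.6 ± 96.3 CPM. These differences between relatives were not themselves tested.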

How the data were processed

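The values deposited by the authors are unnormalized read counts per gene. Per the submitters' processing notes, STAR, limma and mm10 were used, with no versions named. Which program, annotation and strand setting produced the counts is not given in the sources used here. Overlapping genes and close relatives could therefore share counts. Per the labels' protocols, directional libraries were prepared and sequenced in 1 batch. The labels call each pool of pups 1 biological replicate.

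Counts of all 25860 genes were fitted in R 4.3.3 with edgeR 4.0.16 (filterByExpr, which left 13712 genes; TMM scaling; quasi-likelihood test with robust dispersion, genotype as the only term). Benjamini-Hochberg adjustment covered all tested genes, with a threshold of 0.05. DESeq2 1.42.0, limma 3.58.1 (voom), RLE size factors, no filter, a filter of 1 CPM in 4 libraries, a replicate block and leaving out each library were alternatives. Python 3.11.15, pandas 2.3.3 and matplotlib 3.10.9 were used for promoters and figures. Gene positions and lengths came from GENCODE M21 on GRCm38, matched by Ensembl identifier, and promoters from RefSeq.

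The 9 genes, the 10 gene lists and the 7 marker lists were chosen with earlier results of these data known. From each list the text names every gene that passed and the 3 others with the smallest p, with relatives of the 9 genes and the 8 genes of most similar deviation. Genes of the marker lists, Car3, Adipoq, Plin1 and Bglap, and genes at 0, were named after their values were seen. Cebpd was not analysed here, and a result that the naming rule takes is not reported here. The steps were tested on simulated counts of 13625 genes in 5 and 4 libraries with 200 changed: recovery was 66.7% for changes of 1.5-fold, 77.6% for 2-fold and 93.7% for 4-fold changes, with 6.06% of 165 calls false. Both groups were simulated with the same spread, so these rates do not cover the wider spread among the WT libraries. A count of 3 was taken as the floor (0.137 to 0.159 CPM), which covers counting error only.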

Additional observations from a re-analysis of the deposited data

Results flagged for a closer look

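Fabp4 was 1.65 CPM in IRE1KO 3, which lay far above the other 4 IRE1KO libraries, the nearest being at 1.00 CPM. The gap was 0.830 of the range of the group. Angptl4 was 18.9 CPM in WT 1, which lay far below the other 3 WT libraries, the nearest being at 26.8 CPM, a gap of 0.918 of the range. Chance alone flags about 1 in 20 groups of libraries by this measure. Both groups were looked at for each of the 9 genes and for Klf7 and Col15a1.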

How the results depend on the processing

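Over all tested genes, 35 were higher and 52 lower in IRE1KO, of which 4 of the 9 genes were lower, and none and 2 of the listed lipid genes were higher and lower. DESeq2 called 234 higher and 334 lower, with 5 of the 9 genes lower, and 1 and 12 listed genes. Limma voom called 6 and 10, with 1 of the 9 genes lower and 0 and 0 listed genes. Without the filter the counts were 18 and 27, with 2 of the 9 genes lower and 0 and 1 listed genes. With a filter of 1 CPM in 4 libraries they were 27 and 40, with 3 of the 9 genes lower, Fabp4 being lost (adjusted p = 0.0505, edgeR), and 0 and 2 listed genes. Leaving out 1 library gave 1 to 466 genes higher and 1 to 726 lower, 0 to 5 of the 9 genes lower, and 0 to 6 and 0 to 16 listed genes. The highest counts came without WT 1, and without WT 4 they were 151 and 248, 5 of the 9 genes lower, and 2 and 5 listed genes. RLE size factors gave the same counts as TMM. The cause of these shifts was not tested. The log2 fold change of Cd36, 0.039, was -0.019 without IRE1KO 1, -0.16 without IRE1KO 4 and -0.26 without WT 2, and ranged up to 0.31, without WT 3. No other of the 9 genes changed sign under the alternatives run. The genotypes share replicate numbers, but libraries with the same number did not all deviate together (r = 0.15, -0.20, -0.19 and 0.47 for numbers 1 to 4). Pairs with unlike numbers ran from -0.54 (IRE1KO 4 with WT 2) to 0.51 (IRE1KO 3 with WT 2). With the number as a replicate block, 0 genes were higher and 0 lower, 0 of the 9 genes among them, and 0 listed genes either way (in edgeR, an unadjusted p under 0.05 was reached by 1596 with the block and 2263 without). Counts of 17 to 80 reads limit the precision for Fabp4.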

Other observations

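Car3, carbonic anhydrase of fat and muscle, was too low to test and was picked out after its values were seen. It was at 0.188 ± 0.086 CPM in IRE1KO, against 3.73 ± 3.17 CPM in WT (SD, n = 5 and 4), and the highest IRE1KO library, at 0.319 CPM, lay below the lowest WT library, at 0.357 CPM.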
